A study of Mus musculus with 2 samples.

Results

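The cell cycle phase of every cell in a single-cell map of the developing mouse foregut was compared between cell classes, regions and stages. All 7808 of 7808 cells in the deposited cell annotation carried a phase and entered the description: 5113 were labelled G1, 1556 S and 1139 G2M. Cells were wild type C57BL/6 and came from the esophagus, the gastroesophageal squamocolumnar junction (GE-SCJ) and the stomach at embryonic day 15 (E15), embryonic day 19 (E19), day 2 after birth (pup) and week 8 (adult), and all tissue was dissociated with collagenase. The labels list 6, 2, 2 and 3 mice for the respective stages, whereas the methods speak of 3 combined mice per tissue. Cells of each region and stage shared 1 tag in 1 pooled 3′ library, 11 of the 12 combinations held cells, and adult stomach was not analysed here. Mice cannot be told apart within a tag, so each class, region and stage is 1 sample: no test was possible, and every interval below is an exact 95% interval that covers counting error only. Groups of 20 or more cells were described, which were 55 of 93 and held 7480 cells.

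A proliferating cell grows in G1, copies its DNA in S, prepares in G2 and divides in M. Genes of DNA replication, such as those of the MCM helicase and of nucleotide supply, are transcribed from late G1 into S under E2F factors, whereas genes of chromosome condensation, spindle and cytokinesis are transcribed in G2 and M, many of them under the B-Myb, MuvB and FoxM1 factors. Single-cell phase calls score each cell for an S list and a G2M list of such genes, and a cell that scores at or below the background on both is called G1, so that G1 here also takes in resting and differentiated cells that have left the cycle. In the embryonic gut epithelium and mesenchyme divide together as the organ grows, and after birth division becomes confined to defined compartments, such as the basal layer of squamous epithelium and the isthmus of gastric glands.

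The phase was a comparison of 2 scores. In all 7808 cells the label equalled the rule that a cell with both scores below 0 is G1 and that any other cell takes the phase of its higher score. Scores crossed 0 without a gap: 1306 cells (16.7%) lay within 0.05 of the boundary, and 619 G2M cells and 449 S cells had both scores above 0. G2M cells held a median of 15366 unique molecular identifiers (UMIs, counted molecules), S cells 12588.5 and G1 cells 9057, while the median mitochondrial share was 2.18%, 2.21% and 2.32%. Over all cells UMI depth and phase therefore moved together. The same order held in each class with cells of every phase except 2. Squamous cells had medians of 13620 UMIs in G2M, 10372 in S and 12058.5 in G1, and Stromal-2 cells 8609.5, 12573 and 7872. The part of depth in the calls was examined by thinning cells to a common depth. Free RNA from other droplets can enter such scores as well, and its part was not tested. Each of the 9 class labels of the authors was set against marker genes. Markers of columnar epithelium summed to 12646 CPM (UMI counts scaled to equal summed depth) in the columnar class and to 1590 CPM or less in the others, squamous markers to 24087 CPM in the squamous class, and stromal markers to 26080 CPM in the stromal class. Squamous Epithelial-2, with 40 cells, held 10319 CPM of squamous markers. It also held 6466 CPM of mesothelial markers, a list that includes the keratin *Krt19*, against 804 CPM in the squamous class. This class is called by its label only. The mesothelial markers were at 822 CPM in the columnar class and 2552 CPM in Stromal-2.

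Promoter stretches are shown for 5 genes whose levels are given below, and a link between stretch and level was not tested. *Mki67* (the antigen Ki-67, which coats mitotic chromosomes) and *Top2a* (topoisomerase II alpha, which untangles sister chromatids) mark cycling cells. *Plk1* (polo-like kinase 1) and *Aspm* (a spindle pole protein) act in mitosis, and *Mcm6* is a subunit of the replicative helicase. *Plk1*, *Aspm* and *Mcm6* were picked after their values were seen. Each line gives the 200 bases before the RefSeq start on the strand of the gene, 5′ to 3′, in build GRCm38.p6. Capitals mark, on either strand, the CHR element TTTGAA (bound by MuvB complexes), the CCAAT box (bound by NF-Y) and the E2F letters TTTCCCGC, TTTGGCGC, TTTCGCGC or TTTGCCGC. The stretches lie at chr7:135716380-135716579 (minus strand) for *Mki67*, chr11:99024190-99024389 (minus) for *Top2a*, chr7:122159235-122159434 (plus) for *Plk1*, chr1:139454573-139454772 (plus) for *Aspm* and chr1:128359706-128359905 (minus) for *Mcm6*.
Mki67: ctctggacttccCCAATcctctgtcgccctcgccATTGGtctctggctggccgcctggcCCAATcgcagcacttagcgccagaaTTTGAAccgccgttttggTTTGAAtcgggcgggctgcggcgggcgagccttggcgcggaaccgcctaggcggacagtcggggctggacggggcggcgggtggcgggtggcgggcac
Top2a: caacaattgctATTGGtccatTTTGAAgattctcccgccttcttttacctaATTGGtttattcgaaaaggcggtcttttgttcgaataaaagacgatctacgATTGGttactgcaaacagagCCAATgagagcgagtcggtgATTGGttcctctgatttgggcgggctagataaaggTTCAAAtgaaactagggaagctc
Plk1: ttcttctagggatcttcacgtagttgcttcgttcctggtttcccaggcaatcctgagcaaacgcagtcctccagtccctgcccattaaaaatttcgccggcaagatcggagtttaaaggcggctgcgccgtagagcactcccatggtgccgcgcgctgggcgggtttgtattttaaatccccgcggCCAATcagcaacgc
Aspm: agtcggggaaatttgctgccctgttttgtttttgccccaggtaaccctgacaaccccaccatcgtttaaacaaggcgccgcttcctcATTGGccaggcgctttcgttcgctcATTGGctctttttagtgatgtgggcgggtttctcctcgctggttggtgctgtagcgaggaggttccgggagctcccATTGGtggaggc
Mcm6: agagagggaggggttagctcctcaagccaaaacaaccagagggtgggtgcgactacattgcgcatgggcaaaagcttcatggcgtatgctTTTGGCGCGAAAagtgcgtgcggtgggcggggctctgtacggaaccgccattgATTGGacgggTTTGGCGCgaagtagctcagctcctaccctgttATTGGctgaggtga
The *Mki67* stretch held 3 CCAAT boxes and 2 CHR elements, and *Top2a* held 5 and 2. *Plk1* held 1 CCAAT box and *Aspm* 3. *Mcm6* held E2F letters starting 110 and 47 bases before its start, the first of them overlapping a second match on the other strand, and 2 CCAAT boxes.

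Over all cells 34.5% (33.5 to 35.6%) were in S or G2M, here called cycling: 19.9% (19 to 20.8%) in S and 14.6% (13.8 to 15.4%) in G2M. The share was 49.1% (46.9 to 51.3%, 2062 cells) at E15, 37.3% (35.8 to 38.9%, 3695 cells) at E19, 10.5% (9.02 to 12.1%, 1573 cells) in pups and 28.9% (24.8 to 33.2%, 478 cells) in adults. Cycling cells were therefore commonest at the earliest stage, and pups held the fewest. The balance of phases shifted as well. At E15 S cells made up 30.2% and G2M cells 18.9%, at E19 22.0% and 15.3%, in pups 4.13% and 6.36% and in adults 11.3% and 17.6%. S cells outnumbered G2M cells before birth, and G2M cells outnumbered S cells after it. The pup surplus of G2M cells lay in the epithelium (65 G2M and 34 S columnar cells, 20 and 6 squamous cells), while pup stroma held 2 G2M and 12 S cells. Over all classes the pup surplus turned with depth. Pups had 8.18% G2M and 5.18% S cells at 5000 UMIs per cell but 6.91% and 9.45% at 2000 UMIs. Within the epithelium it did not turn at 2000 UMIs, with 68 G2M and 65 S columnar cells and 19 and 13 squamous cells. At that depth pup stroma held 2 G2M and 27 S cells, and pup smooth muscle 1 and 21. Stage and the mix of classes cannot be told apart in these pooled shares, since squamous cells made up 318 of the 478 adult cells, and classes are taken in turn below.

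**Figure D1:**
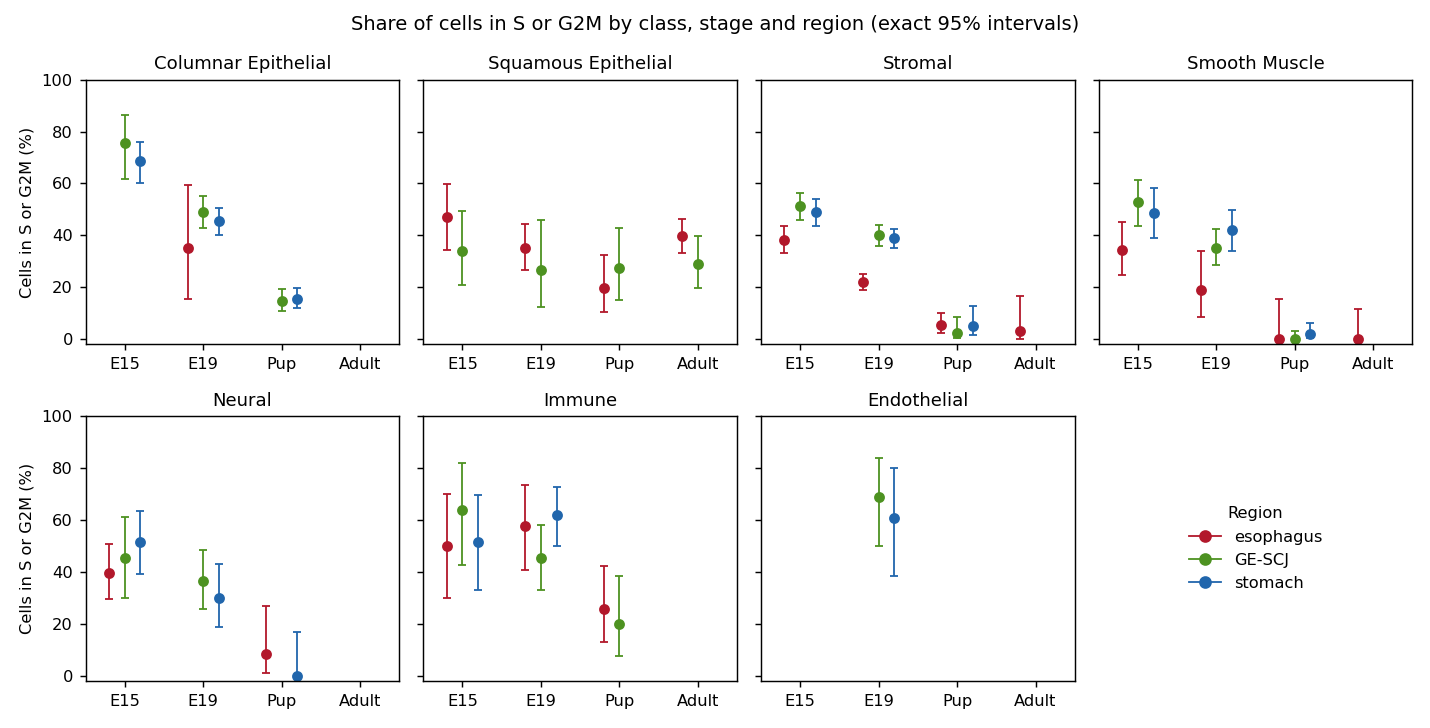
Share of cells in S or G2M (y axis, percent) by stage (x axis) in each of 7 classes, coloured by region, for groups of 20 or more cells; bars are exact 95% intervals. Shares in pups lay below those of E15 and E19 in every class and region drawn except the squamous GE-SCJ at E19, and squamous epithelium reached 39.7% in the adult esophagus.

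Columnar epithelium, which forms the glandular lining of the stomach, had the highest cycling share of the larger classes at E15. There 69.8% (63.0 to 76.0%, 202 cells) of columnar cells were in S or G2M, against 46.5% (42.7 to 50.4%, 660 cells) at E19 and 15.2% (12.5 to 18.2%, 652 cells) in pups. The 3 intervals did not overlap. S cells made up 40.1% of columnar cells at E15, 22.6% at E19 and 5.21% in pups, and G2M cells 29.7%, 23.9% and 9.97%. The GE-SCJ and the stomach were close to each other at each stage: 75.5% (61.7 to 86.2%, 53 cells) and 68.6% (60.2 to 76.1%, 140 cells) at E15, 48.9% (42.8 to 55.0%, 274 cells) and 45.4% (40.2 to 50.6%, 366 cells) at E19, and 14.8% (10.9 to 19.4%, 291 cells) and 15.4% (11.8 to 19.6%, 351 cells) in pups. Their intervals overlapped throughout. Only 26 columnar cells were adult, of which 38.5% were cycling, and neither adult region reached 20 cells. Of the 26, 12 had mostly prenatal cells as nearest neighbours in expression, and without them 2 of 14 were cycling. The neighbour search left out the scoring genes and the genes of the lists used below, but no other cycle gene, and most cells of the map were prenatal. Whether cycling itself drew such neighbours was not tested, so the share without these cells is no corrected value.

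Squamous epithelium, the stratified lining of the esophagus and forestomach in which only the basal layers divide, had, in the esophagus and by the deposited phases, its lowest value in pups and a higher one in adults. In the esophagus its cycling share was 46.9% (34.3 to 59.8%, 64 cells) at E15, 35.0% (26.5 to 44.2%, 120 cells) at E19, 19.6% (10.2 to 32.4%, 56 cells) in pups and 39.7% (33.3 to 46.3%, 232 cells) in adults. The adult value lay 20.01 percentage points above that of pups with intervals apart, and overlapped those of E15 and E19. At an equal 5000 UMIs per cell this call was lost, with 29.8% (17.3 to 44.9%, 47 cells) in pups and 37.4% (30.2 to 45.1%, 171 cells) in adults. Another 29 pup esophagus cells carried the label Squamous Epithelial-2, and none of them was cycling, which allows a share of up to 11.9%. With both labels counted together the pup esophagus share was 12.9% (6.64 to 22.0%, 85 cells). At the GE-SCJ squamous cycling shares were 34.0% (20.9 to 49.3%, 47 cells) at E15, 26.7% (12.3 to 45.9%, 30 cells) at E19, 27.3% (15 to 42.8%, 44 cells) in pups and 29.1% (19.8 to 39.9%, 86 cells) in adults, and these intervals all overlapped. G2M cells led in the adult tissue. In adult esophageal squamous epithelium 25.9% (20.4 to 32.0%) were G2M and 13.8% (9.63 to 18.9%) S, and at the adult GE-SCJ 18.6% (11 to 28.4%) were G2M and 10.5% S. At E19 both squamous groups held 13.3% G2M cells, with 21.7% S cells in the esophagus and 13.3% at the GE-SCJ. Of the 318 adult squamous cells, 4 had mostly prenatal nearest neighbours, against 35 of the 160 adult cells of other classes. Without them the cycling share of those other classes was 4.80% (1.78 to 10.2%) in place of 13.1%, and that of all adult cells 27.8%. Without the 1 such esophageal cell the adult esophageal squamous cycling share was 39.8%. The 35 cells of other classes included all 6 adult immune cells, and the limit on the neighbour search given above applies to these shares too.

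Stroma, the fibroblasts that surround the epithelium, was the largest class with 3442 cells and differed between regions before birth. At E15 cycling stromal cells made up 38.3% (33.2 to 43.7%, 347 cells) in the esophagus, 51.1% (45.8 to 56.5%, 350 cells) at the GE-SCJ and 48.9% (43.6 to 54.2%, 360 cells) in the stomach. At E19 they made up 21.9% (19 to 25.1%, 739 cells), 40.0% (36.0 to 44.1%, 588 cells) and 38.8% (35.2 to 42.5%, 701 cells). The esophagus thus lay 12.8 points below the GE-SCJ at E15, 18.0 points below it at E19 and 16.9 points below the stomach at E19, all with intervals apart. At E15 the intervals of the esophagus and the stomach just overlapped. Both phases took part at E19: esophageal stroma held 14.9% S and 7.04% (5.30 to 9.13%) G2M cells, against 25.3% and 14.6% (11.9 to 17.7%) at the GE-SCJ and 24.4% and 14.4% (11.9 to 17.2%) in the stomach. Median depth hardly differed there, at 9172, 9080 and 9025 UMIs. With E19 stromal cells thinned to 5000 UMIs and 194 shallower ones left out, the shares were 22.6% (677 cells), 39.9% (539 cells) and 41.3% (618 cells). In pups few stromal cells were cycling: 5.30% of 151 in the esophagus, 2.44% of 82 at the GE-SCJ and 5.13% of 78 in the stomach. Adult esophageal stroma held 1 S cell among 31 and no G2M cell, which allows up to 11.2% G2M. Stromal-2, a smaller class, had 34.8% cycling cells among 46 at the E19 GE-SCJ and none among 27 in pup stomach, which allows up to 12.8%.

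In smooth muscle, too, the esophagus had the lowest cycling share before birth. The share at E15 was 34.4% (24.9 to 45.0%, 93 cells) in the esophagus, 52.7% (43.8 to 61.5%, 131 cells) at the GE-SCJ and 48.6% (39.0 to 58.3%, 111 cells) in the stomach. At E19 it was 19% (8.60 to 34.1%, 42 cells), 35.3% (28.5 to 42.5%, 190 cells) and 41.9% (34.1 to 49.9%, 160 cells). Only the esophagus and the stomach at E19, whose shares differed by 22.8 points, had intervals apart. These intervals almost touched, the one ending at 34.12% and the other starting at 34.13%. In pups almost no smooth muscle cell was in S or G2M: none of 22 in the esophagus (up to 15.4%), none of 119 at the GE-SCJ (up to 3.05%) and 2 of 113 in the stomach (1.77%). Over the regions this was 0.787% of 254, which became 0.952% of 105 cells at 5000 UMIs and 8.80% of 250 cells (5.6 to 13.0%) at 2000 UMIs. None of 30 adult esophageal smooth muscle cells was cycling, which allows up to 11.6%.

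The remaining classes were smaller. Neural cells, the enteric neurons and glia, were cycling in 45.0% of 202 at E15, 32.4% of 145 at E19 and 5.08% of 59 in pups. By region their E15 shares were 39.8% (88 cells), 45.2% (42 cells) and 51.4% (72 cells) in esophagus, GE-SCJ and stomach. Immune cells kept a high share up to birth, with 54.9% of 82 at E15 and 55.0% of 180 at E19, and 22.1% of 86 in pups. At E19 their share was 57.9% (38 cells) in the esophagus, 45.5% (66 cells) at the GE-SCJ and 61.8% (76 cells) in the stomach. Endothelial cells, which line blood vessels, had the highest prenatal values of any class, 73.9% of 46 at E15 and 63.8% of 69 at E19, though with intervals that overlapped those of columnar cells at E15 and of immune cells at E19. In pups 1 of 21 was cycling. The classes thus ranged at E19 from 32.4% in neural to 63.8% in endothelial cells. Over all stages, erythroid (red blood cell) markers summed to 9180 CPM in the immune class, above its 6828 CPM of immune markers. In the endothelial class they summed to 7448 CPM, above its 3416 CPM of endothelial markers. The other classes held 2809 CPM or less of erythroid markers. The part of erythroid content in the immune and endothelial cycling shares was not tested.

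Stages were then set side by side within each class and region. The cycling share was higher at E15 than at E19 in 13 of 15 such pairs, and in 6 of them the intervals were apart, always with E15 higher. The exceptions were immune cells of the esophagus and of the stomach. It was higher at E19 than in pups in 12 of 13 pairs (8 apart), the exception being squamous cells of the GE-SCJ, and higher at E15 than in pups in 14 of 14 (12 apart). The S share was higher at the earlier stage in 13 of 15, 13 of 13 and 14 of 14 of these pairs, and the G2M share in 12 of 15, 12 of 13 and 13 of 14.

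Depth differed between the groups compared. Columnar groups had median depths of 22286 to 29810 UMIs and pup stromal groups of 3859 to 5072.5 UMIs, so that phases were recomputed with the S and G2M lists of Seurat after each cell was thinned to 5000 or to 2000 UMIs. At full depth the recomputed phase equalled the deposited one in 98.5% of cells, at 5000 UMIs in 93.9% of 6673 cells (1135 shallower cells left out) and at 2000 UMIs in 86.7% of 7645 cells (163 left out). Columnar epithelium at E15, E19 and in pups had 67.3%, 45.2% and 16% cycling cells at 5000 UMIs and 66.8%, 51.0% and 20.6% at 2000 UMIs. Stroma had 48.6%, 34.0% and 2.73% at 5000 UMIs, the last in 110 pup cells after 201 shallower ones were left out. At 2000 UMIs stroma had 53.3%, 39.4% and 9.76%. The order of the 3 stages was the same at each depth in both classes, whereas the size of single shares moved in either direction. Relative to its deposited value, the share of pup stroma, which had 4.50% in the deposited phases, moved most of these. Pair by pair and for the cycling share, the order of E15 and E19 was that of the deposited phases in 15 of 15 cases at either depth and that of E15 and pups in 14 of 14. The order of E19 and pups was the same in 12 of 13 cases at 5000 UMIs and in 13 of 13 at 2000 UMIs. That of pups and adults was the same in only 3 of 4 and 2 of 4. Orders of single phases changed more. At 5000 and 2000 UMIs the S share was higher at E15 than at E19 in 11 and 12 of 15 pairs, and the G2M share in 14 and 11. The G2M share was higher at E19 than in pups in 10 and 12 of 13. Adult squamous epithelium had 34.0% cycling cells at 5000 UMIs, 24.8% of all being G2M, against 29.3% in pups and 33.3% at E19. The deposited phases gave 24.3% in pups and 36.8% in adults.

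**Figure D2:**
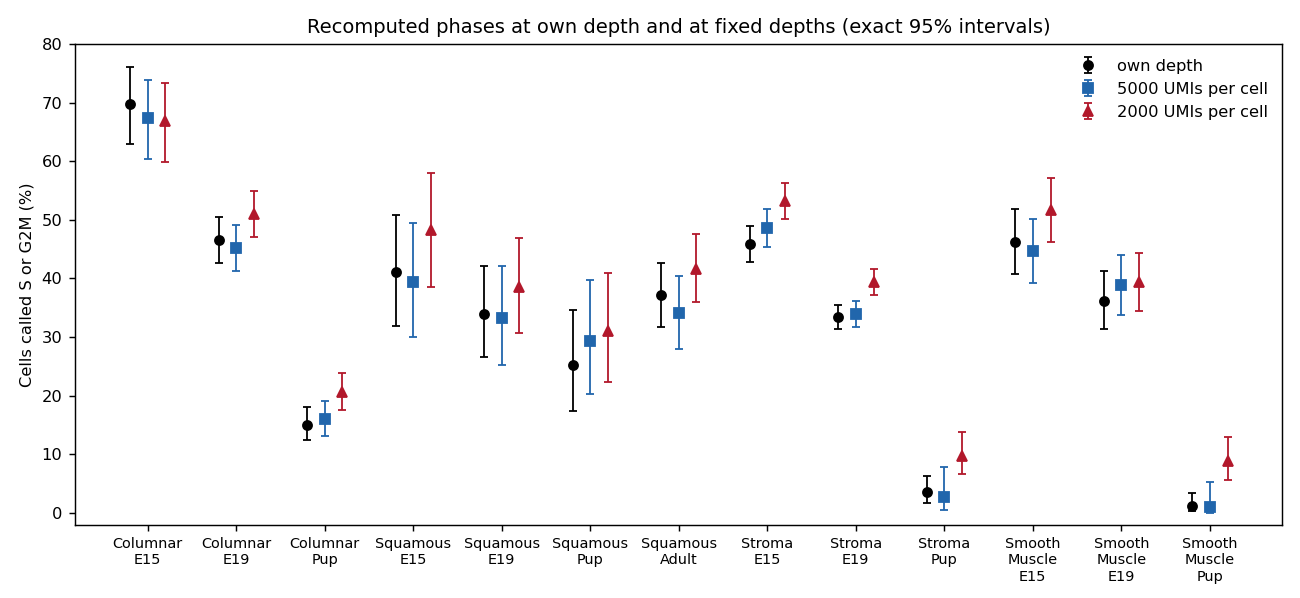
Recomputed share of cells in S or G2M (y axis, percent, exact 95% intervals) for 13 groups of class and stage, at each cell's own depth, at 5000 UMIs and at 2000 UMIs. The prenatal groups lay above the pup groups of the same class at all 3 depths, and most shares were highest at 2000 UMIs.

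*Mki67* (chr7:135689784-135716361, minus strand, mm10) and *Top2a* (chr11:98992943-99024189, minus) both belong to the G2M list that Seurat scores, so that their levels by phase describe the calls. *Mki67* was at 296 to 877 CPM in the G2M cells of 39 groups with 5 or more such cells, with a median of 479 CPM. In S cells it reached 14.9 to 425 CPM in 39 of 40 groups and had no UMI in the other. In G1 cells it had no UMI in 7 of 55 groups, and its highest level was 74.8 CPM, in 24 immune cells of the pup GE-SCJ. The ranges of G1 and G2M cells thus did not overlap. *Top2a* ranged from 340 to 1244 CPM in G2M cells, from 48.8 to 492 CPM in S cells and up to 27.4 CPM in G1 cells, with 5 of 55 G1 groups at no UMI. *Top2a* was higher in S than in G1 cells in 40 of 40 groups, and *Mki67* in 39 of 40. *Top2a* was higher in G2M than in S cells in 35 of 36 groups, the exception being E15 neural cells of the GE-SCJ, with 340 CPM in 9 G2M cells and 410 CPM in 10 S cells.

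Levels summed over all phases are given by stage. *Mki67* was at 178, 127 and 53.1 CPM in columnar epithelium at E15, E19 and in pups, and at 163, 115 and 38.8 CPM in stroma. In squamous epithelium *Mki67* was at 166, 114, 146 and 120 CPM at E15, E19, in pups and in adults, an order that differed from that of the cycling shares, which were lowest in pups. In the 31 pup cells labelled Squamous Epithelial-2, *Mki67* had no UMI, which allows up to 8.86 CPM.

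**Figure D3:**
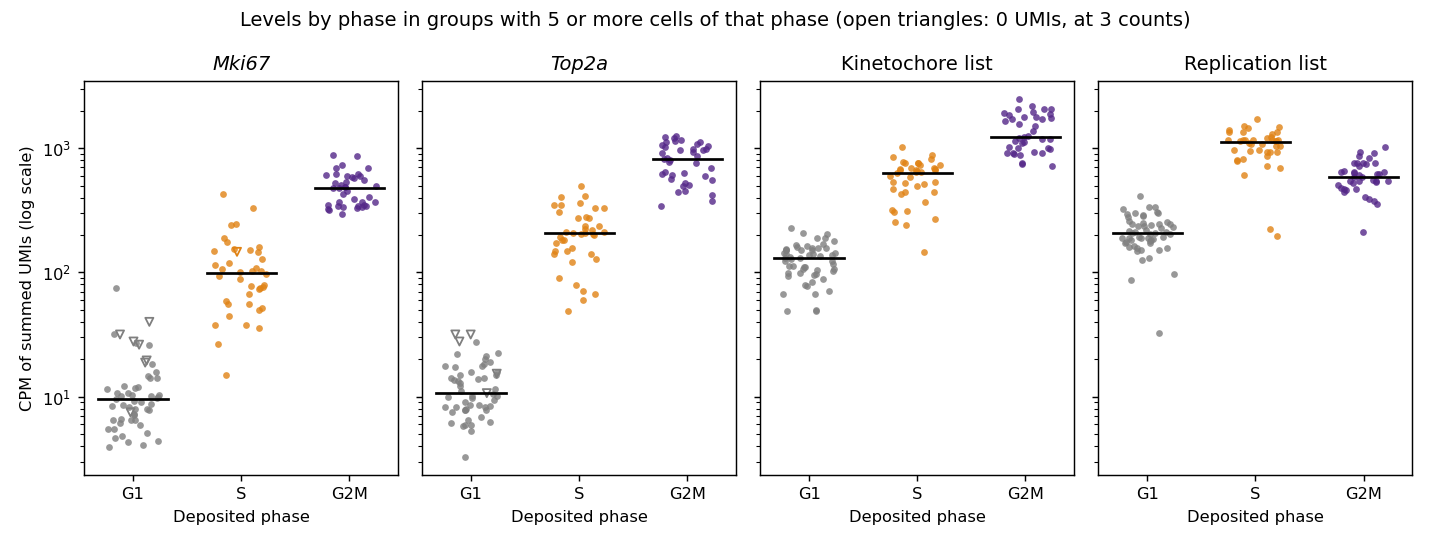
Level (y axis, CPM, log scale) of *Mki67*, *Top2a*, the summed kinetochore list and the summed replication list in G1, S and G2M cells; each point is a group of class, region and stage with 5 or more cells of that phase, bars are medians, and open triangles mark groups with no UMI, drawn at 3 counts. By their medians *Mki67*, *Top2a* and the kinetochore list were highest in G2M cells, with 1 group higher in S for *Top2a*, and the replication list was highest in S cells.

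Genes that did not enter either scoring list were read in the same way. A kinetochore list of 16 such genes, whose products attach chromosomes to the spindle, summed to 48.5 to 227 CPM in G1, 146 to 1015 CPM in S and 720 to 2494 CPM in G2M cells. It was higher in G2M than in S cells in 36 of 36 groups, and higher in S than in G1 cells in 40 of 40. A replication list of 17 such genes, which license and fire origins or copy DNA, summed to 32.4 to 413 CPM in G1, 195 to 1707 CPM in S and 212 to 1020 CPM in G2M cells. It was higher in S than in G1 cells in 40 of 40 groups and higher in G2M than in S cells in 0 of 36. The 2 lists thus differed in order: kinetochore genes peaked in G2M cells and replication genes in S cells. At E19 columnar cells held 236, 917 and 547 CPM of the replication list in G1, S and G2M, and stromal cells 268, 1137 and 784 CPM. The phases were called from the same counts, so these orders describe the calls and are no separate test of them.

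G2M cells were then set against G1 cells across all genes at E19, first in columnar epithelium, with 158 G2M cells (5198140 UMIs) and 353 G1 cells (8027589 UMIs). Of the G2M cells 2 came from the esophagus, 73 from the GE-SCJ and 83 from the stomach, and of the G1 cells 13, 140 and 200. A gene was tested where both sums together held 100 or more UMIs, and called where the ratio of CPM, with 1 UMI added to each sum, passed 2-fold. In columnar epithelium 457 of 9032 genes were higher in G2M by this rule (5.06%) and 266 were lower (2.95%), with a median log2 ratio of 0.06 over all genes. The genes of the G2M scoring list were higher in 52 of 54 cases with a median log2 ratio of 4.69, *Jpt1* (0.76) and *Cbx5* (0.80) being the others, and those of the S list in 22 of 35 with a median of 1.56. Both lists chose the cells, and nothing is read from these counts. Outside them 383 genes were higher and 266 lower. The gene lists below leave out scoring genes, and their counts and medians run over members with enough UMIs, which were 209 of 240 in columnar epithelium and 220 of 240 in stroma. A gene found mainly in G2M cells passes that minimum because it is high there, so these counts describe the lists and do not support the calls.

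Mitotic genes outside the scoring lists made up most of the highest ratios in columnar cells. *Prc1* (chr7:80294450-80316259, plus), which bundles microtubules at the midzone before cytokinesis, was at 196 CPM in G2M, 32.0 CPM in S and 2.49 CPM in G1 cells, a log2 ratio of G2M over G1 of 6.23 (5.66 to 7.02). *Pbk*, a mitotic kinase, was at 103 CPM in G2M and 0.623 CPM in G1 cells, a log2 ratio of 7.10 (6.13 to 8.99) on only 5 G1 UMIs. *Plk1* was at 106, 10.8 and 1.62 CPM in G2M, S and G1 cells (5.93; 5.25 to 6.96). Its S level was far nearer to G1 than to G2M. Of 18 kinesin and spindle genes 18 were higher in G2M, with a median log2 ratio of 4.64, among them *Aspm* at 75.2 CPM in G2M and 1.99 CPM in G1. Of 14 kinetochore genes 13 were higher, with a median of 3.95 and *Zwint* (0.38) as the exception, and of 13 genes of the spindle checkpoint and the anaphase-promoting complex 10 were higher, with a median of 4.17. *Knl1*, the kinetochore scaffold, had a log2 ratio of 6.46, and *Bub1b*, a checkpoint kinase, of 4.98. Condensin and cohesin genes, which shape and hold chromatids, were higher in 8 of 9 cases with a median of 2.06. Of these *Smc2* stood at 196 CPM in G2M and 11.8 CPM in G1, and *Smc3* was not past the fold.

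Cyclins differed in the phase of their highest level. *Ccnb1* (chr13:100778650-100786570, minus), the cyclin of mitotic entry, was at 160 CPM in G2M, 12.7 CPM in S and 1.99 CPM in G1 columnar cells, a log2 ratio of 6.25 (5.62 to 7.14). *Ccna2*, the cyclin of S and G2, was at 165 CPM in G2M, 33.5 CPM in S and 3.49 CPM in G1 (5.52). *Ccne1*, which opens S phase, was highest in S, at 59.6 CPM, with 13.9 CPM in G2M and 5.23 CPM in G1. The D cyclins, which drive G1, were highest in S and not past the fold between G2M and G1: *Ccnd1* was at 48.1 CPM in G2M, 185 CPM in S and 62.3 CPM in G1 cells, and *Ccnd2* at 558, 1062 and 766 CPM. Of 14 cyclin and kinase genes 5 were higher and none lower. Among 11 genes on a list of cyclin-dependent kinase inhibitors and quiescence genes, *Cdkn1b* (p27) was higher in G2M at 47.3 against 18.1 CPM (1.39; 1.09 to 1.70) and *Ccng2* was higher at a log2 ratio of 1.07. *Cdkn1a* (p21), which stops cyclin-dependent kinases, was lower, at 78.7 CPM in G2M against 216 CPM in G1 (−1.45; −1.61 to −1.30). Its ratio was −1.31 within the GE-SCJ and −1.55 within the stomach. Of 7 transcription factors of the cycle 3 were higher, *Foxm1*, *Lin54* and *Lin9*, with *Foxm1* at 24.0 CPM in G2M and 1.99 CPM in G1.

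Replication genes had lower ratios than mitotic genes. Of 12 tested genes outside the scoring lists 6 were higher in G2M than in G1 and none lower, with a median log2 ratio of 1.02. *Lig1*, which joins Okazaki fragments, was at 97.9 CPM in G2M, 153 CPM in S and 27.8 CPM in G1. *Mcm3*, a helicase subunit, had a ratio of 0.53 in G2M and 2.31 in S over G1, and its partner *Mcm6*, of the S scoring list, stood at 55.8, 170 and 37.5 CPM in G2M, S and G1. *Tk1*, thymidine kinase of nucleotide supply, was at 87.1 CPM in G2M, 70.9 CPM in S and 11.1 CPM in G1. All 12 replication-dependent histone genes tested were higher, with a median of 3.86. *Hist1h2ap* (chr13:21833026-21833507, minus) was at 660 CPM in G2M, 372 CPM in S and 9.97 CPM in G1 (6.03; 5.73 to 6.39). These histone genes are near-identical copies that share reads and whose mRNAs mostly lack the poly(A) tail that the 3′ kit captures, so that their single values are uncertain. Of 11 histone variants and chromatin proteins 11 were higher, with a median of 1.80, *H2afz* being at 1892 and 475 CPM.

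Some mature gastric genes were lower in columnar G2M cells, and others were not. Pit cells are the mucous surface cells of the stomach. Of 9 genes on the pit list, 5 were lower and 1 higher, with a median log2 ratio of −1.5. *Tff1*, a secreted peptide of these cells, was at 1824 CPM in G2M, 2299 CPM in S and 8515 CPM in G1 (−2.22; −2.25 to −2.19), with −2.03 within the GE-SCJ and −2.35 within the stomach. *Gkn1* (chr6:87345650-87350942, minus), a gastrokine of the same cells, was at 116, 210 and 763 CPM in G2M, S and G1 (−2.71; −2.84 to −2.60). Its ratio was −3.07 in the stomach but −0.78 at the GE-SCJ, short of the fold. *Gkn2* was at −0.56 at the GE-SCJ and −2.90 in the stomach, and *Psca*, a surface protein, at −1.15 and −1.96. *Gkn3* went the other way, at 156 CPM in G2M, 261 CPM in S and 56.3 CPM in G1 (1.47; 1.30 to 1.64), with 43.8% of its G2M UMIs and 41.2% of its G1 UMIs from 3 cells each. The paper counts *Gkn3* among markers of neck and isthmus cells, so its place on the pit list is open to doubt. *Krt20*, a keratin of mature surface cells, was lower at 2.12 against 40.1 CPM (−4.12; −5.26 to −3.39), and 5 of 158 G2M cells held a UMI of it against 59 of 353 G1 cells.

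Gland genes, which mark the acid, enzyme and hormone cells of the stomach, were lower in 6 of 11 cases and higher in none, with a median log2 ratio of −1.54. Of these, *Ghrl* and *Sst* rested on a few endocrine cells: without the endocrine-marked cells defined below their ratios were −0.02 and 0.40. *Chga* and *Chgb* were then at 1.36 and 0.25, but these 2 genes chose the cells removed, so nothing is read from their change. *Atp4a* and *Atp4b* were still lower without those cells, at −1.68 and −1.57. *Atp4a*, a subunit of the proton pump of parietal cells, was at 149 CPM in G2M and 478 CPM in G1, and *Atp4b* at 128 and 372 CPM. In each of these 3 cells held over 30% of the UMIs of either arm. *Pgc*, which encodes the pepsin precursor progastricsin, was at 2016 and 1740 CPM, a ratio of 0.21, and was 0.54 within the GE-SCJ and 1.71 within the stomach. The pooled ratio thus lay below both regional ones, of which that of the stomach was past the fold upward. The arms also held 13 G1 and 2 G2M cells of the esophagus, whose part in the pooled ratio was not tested. Of 12 progenitor genes 4 were higher, *Lgr5*, *Cd44*, *Bex1* and *Vcan*, and none lower, with a median of 0.52. *Lgr5* (chr10:115450311-115587780, minus), a receptor of gastric stem cells, was at 24.2 CPM in G2M, 19.3 CPM in S and 9.84 CPM in G1 (1.29; 0.88 to 1.73), and was detected in 43 of 158 G2M and 35 of 353 G1 cells, whose depth differed (medians of 32954 and 21972 UMIs). *Lgr5* had ratios of 0.88 within the GE-SCJ and 1.60 within the stomach. *Sox9*, a transcription factor of progenitors, was at 378, 345 and 255 CPM (0.57). Summed columnar markers were at 6405 CPM in G2M, 7353 CPM in S and 14793 CPM in G1 cells. Their list includes *Tff1*, whose difference between G2M and G1, given above, is counted here again and makes up most of this one. Markers of other cells differed too: erythroid markers were at 262, 827 and 2321 CPM in G2M, S and G1 columnar cells and immune markers at 8.08, 5.87 and 26.4 CPM. With mitochondrial, ribosomal protein and hemoglobin genes left out of the library size, 460 columnar genes were higher and 264 lower. The part of erythroid or immune markers alone in the ratios was not tested. The mesothelial list was at 775, 1001 and 1620 CPM. Over all cells it was at 822 CPM in columnar and 804 CPM in squamous epithelium but 47.1 CPM in stroma. The list includes the keratin *Krt19*, and which of its genes gave these sums was not tested.

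The lowest ratios in columnar epithelium belonged to hormone genes and rested on few cells. *Ghrl* (chr6:113716119-113719880, minus), which encodes ghrelin, was at 41.9 CPM in G2M, 44.0 CPM in S and 4438 CPM in G1 (−6.72; −6.92 to −6.53), and 3 G1 cells held 99.0% of its G1 UMIs. UMIs of *Ghrl* occurred in 222 of 353 G1 and 113 of 158 G2M cells. *Pyy*, the peptide YY gene, was at 1.92 and 320 CPM in G2M and G1, with 98.7% of the G1 UMIs in 3 cells, and *Gast*, the gastrin gene, at 1.73 and 138 CPM, with 97.8% in 3 cells. Enteroendocrine cells release such hormones from granules that hold the chromogranins *Chga* and *Chgb*. Cells with 2 or more UMIs of these 2 genes numbered 10 of 353 G1 cells (2.83%; 1.37 to 5.15%), 1 of 149 S cells and 0 of 158 G2M cells, which allows up to 2.31%. The same cut found 0 of 180 immune cells at E19, whose median depth was 8891.5 UMIs. At 5000 UMIs it found 6 of 329 G1, 0 of 145 S and 0 of 157 G2M columnar cells. Without those cells *Ghrl* had a ratio of −0.02 and *Pyy* of −0.36, whereas *Tff1* was at −2.27, *Krt20* at −4.17 and *Cdkn1a* at −1.37, and 463 genes were higher and 246 lower. Nucleolar genes (0 of 11 higher or lower, median 0.59) and immediate early genes (0 of 13, median −0.26), which respond to dissociation, were not past the fold.

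In E19 stroma 239 G2M cells (2921136 UMIs) were set against 1359 G1 cells (11530484 UMIs). By the same rule 595 of 10158 genes were higher in G2M (5.86%) and 401 were lower (3.95%), with a median log2 ratio of −0.03. The scoring lists contributed 53 of 53 tested G2M genes and 26 of 35 S genes, and outside them 516 genes were higher and 401 lower. The esophagus gave 577 of the 1359 G1 cells but only 52 of the 239 G2M cells. The pooled ratios therefore mix phase with region, and ratios within each region are given for genes that vary between them.

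Mitotic genes and histone genes again had the highest ratios. *Prc1* was at 646 CPM in G2M, 59.5 CPM in S and 4.51 CPM in G1 stromal cells (7.13; 6.76 to 7.59), *Aspm* at 195, 9.47 and 1.56 CPM (6.89; 6.29 to 7.73), and *Spc25*, of the kinetochore NDC80 complex, at 278, 41.6 and 2.34 CPM (6.84; 6.34 to 7.50). Their lowest level was in G1 in each case. *Mxd3*, a MYC network repressor, was at 144, 21.4 and 0.954 CPM (7.12; 6.38 to 8.25). Kinesin and spindle genes were higher in 19 of 19 cases (median 5.41), kinetochore genes in 15 of 16 (4.88, *Zwint* at 0.68 being the other), checkpoint genes in 10 of 13 (4.6) and condensin and cohesin genes in 7 of 9 (3.23). Replication-dependent histone genes were higher in 12 of 12 (5.42), led by *Hist1h2ap* at 1884, 397 and 7.81 CPM in G2M, S and G1 (7.90; 7.61 to 8.23).

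Regulators of the cycle also differed between stromal phases. *Ccnb1* was at 268 CPM in G2M, 8.23 CPM in S and 3.73 CPM in G1, and *Ccna2* at 325, 42.8 and 2.78 CPM. *Ccnd2*, a D cyclin, was lower in stromal G2M cells, at 151 CPM against 637 CPM in S and 536 CPM in G1 (−1.82; −1.97 to −1.69). It was lower in each region, by −1.96 in the esophagus, −1.82 at the GE-SCJ and −1.93 in the stomach, and had been at −0.46 in columnar cells. *Cdkn2c* (p18), an inhibitor of the D cyclin kinases, was at 121, 16.5 and 2.78 CPM in G2M, S and G1 (5.41; 4.92 to 6.02). *Cdkn1c* (p57), another inhibitor, was at 1030 and 1361 CPM in G2M and G1 (−0.40), short of the fold. *E2f7*, a repressor of E2F targets, was at 70.9, 40.3 and 1.56 CPM, and *Foxm1* at 80.8, 16.9 and 3.21 CPM. *E2f1* was highest in S, at 69.8 CPM, with 14.4 CPM in G2M and 20.5 CPM in G1. Of 12 tested replication genes 8 were higher in G2M than in G1 (median 1.32), *Lig1* being at 117, 239 and 22.2 CPM in G2M, S and G1, and *Tk1* was at 146, 79.2 and 3.73 CPM.

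Fibroblast matrix genes had smaller ratios. Of 19 matrix genes 2 were lower by the pooled ratio, *Ogn* and *Igfbp5*, and none higher, with a median of −0.56. *Ogn*, the proteoglycan osteoglycin, was at 149 CPM in G2M, 502 CPM in S and 553 CPM in G1 (−1.89; −2.03 to −1.75), and its ratio was −2.41 in the esophagus, −2.12 at the GE-SCJ and −1.88 in the stomach. *Igfbp5*, which binds insulin-like growth factors, had a pooled ratio of −1.12, with −0.08, −1.67 and −1.54 in the 3 regions. *Col1a1*, the main fibrillar collagen gene, was at 5555 and 9008 CPM (−0.70), with −0.46, −0.53 and −0.30 within the regions, and *Col3a1* at −0.66 pooled and −0.39, −0.39 and −0.21 within. The pooled collagen ratios were thus larger in size than those of any region. Of 16 mesenchymal signal genes only *Igf1*, a growth factor, was past the fold, at 819 and 1697 CPM (−1.05; −1.11 to −0.99), with −0.67, −1.04 and −0.99 by region. *Ptch1*, the hedgehog receptor, was at 687 and 440 CPM (0.64), and *Bmp4*, a ligand, at 381 and 234 CPM (0.70), both short of the fold. Summed stromal markers were at 21651 CPM in G2M, 25871 CPM in S and 34472 CPM in G1 cells. Erythroid markers were at 2568, 816 and 1055 CPM. With mitochondrial, ribosomal protein and hemoglobin genes left out of the library size, 547 stromal genes were higher and 485 lower. The part of erythroid markers alone in these ratios was not tested.

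The lowest stromal ratios came from genes of low level. *Zfp469*, a zinc finger gene by name that the annotation used here types as a long non-coding RNA, was at 4.79 CPM in G2M, 21.6 CPM in S and 33.0 CPM in G1 (−2.69; −3.67 to −2.02). *Tcp11l2* was at 4.11, 9.06 and 26.9 CPM (−2.60; −3.68 to −1.89). *Fndc5*, the irisin precursor gene, had 2 UMIs in G2M cells against 106 in G1 cells (−3.18; −6.81 to −1.86).

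**Figure D4:**
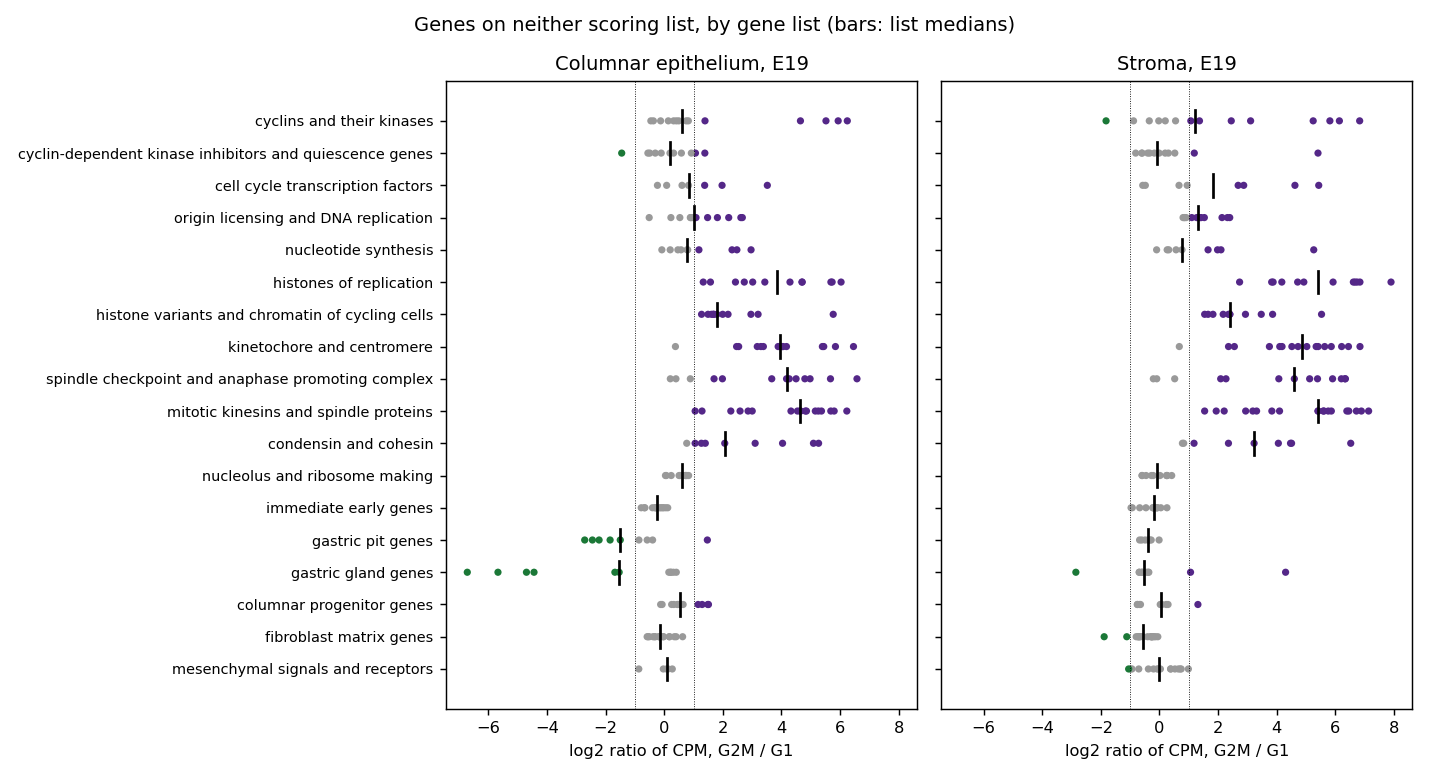
Log2 ratio of G2M over G1 (x axis) for the genes of 18 lists (y axis) at E19, in columnar epithelium and in stroma; purple points are past the fold upward, green points past it downward, grey points neither, and bars are list medians. Spindle, kinetochore, checkpoint and histone lists lay far to the right in both classes, and the pit and gland medians lay at −1.5 and −1.54 in columnar epithelium and at −0.39 and −0.52 in stroma.

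The 2 comparisons had different cells and could be set side by side. Of 8162 genes tested in both, 350 were higher in G2M in both, which is 82.4% of the 425 higher in columnar epithelium and 72.0% of the 486 higher in stroma. Part of this overlap was set by the phase calls, and without the scoring genes 278 were higher in both, 78.8% of 353 and 68.1% of 408. Of the lower genes 15 were lower in both comparisons, 12% of the 125 lower in columnar epithelium and 8.24% of the 182 lower in stroma. The background for these percentages is all 8162 genes, of which 425 were higher and 125 lower in columnar epithelium. In stroma 486 of the 8162 were higher and 182 lower. Over each comparison's own tested genes, 5.06% were higher and 2.95% lower in columnar epithelium, and 5.86% and 3.95% in stroma. No gene was higher in columnar epithelium and lower in stroma, and 6 were the reverse: *Chga*, *Chgb* and the 4 globin genes *Hba-a1*, *Hba-a2*, *Hbb-bs* and *Hbb-bt*. *Chgb* was at −5.67 in columnar cells and 4.30 in stroma, where 1 cell held all 109 of its G2M UMIs, and *Hba-a1* was at −3.38 and 1.49. None of the 6 had the same direction in every region.

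**Figure D5:**
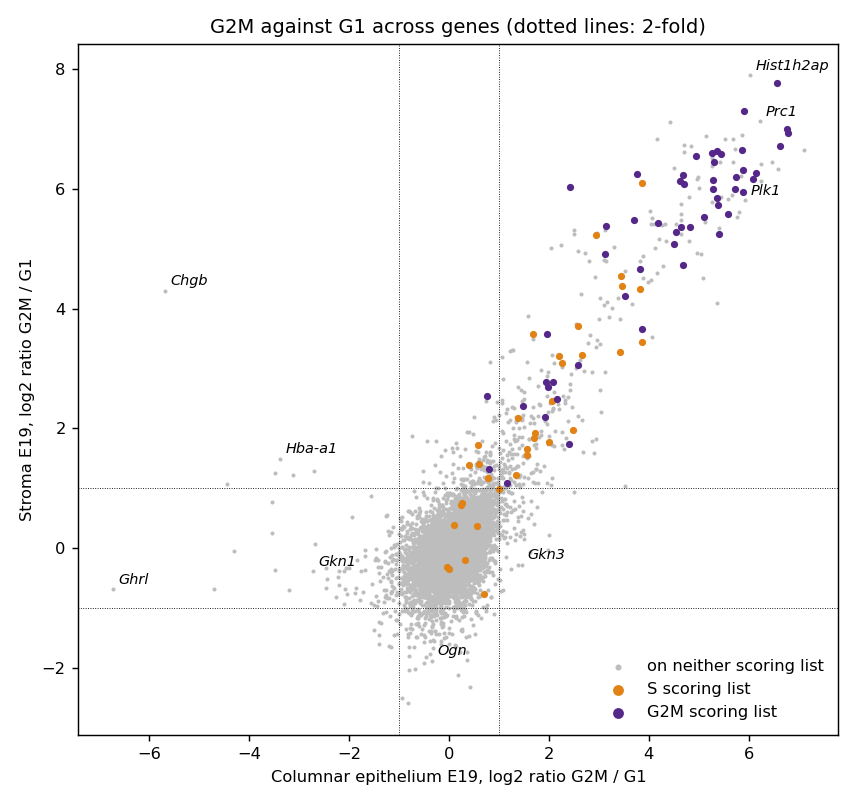
Log2 ratio of G2M over G1 in columnar epithelium (x axis) and in stroma (y axis) at E19 for genes tested in both; orange points are genes of the S scoring list, purple points of the G2M list, grey points of neither, and dotted lines mark 2-fold. Shared genes such as *Prc1*, *Plk1* and *Hist1h2ap* lay at the upper right, while genes lower in one class, such as *Ghrl* and *Gkn1* or *Ogn*, lay near 0 or short of the same size in the other.

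The promoter elements shown at the outset were counted in windows of 300 bases, 250 before to 50 after each RefSeq start, on both strands. Over all 32851 windows 17.9% held the CHR letters, 37.4% a CCAAT box, 2.26% E2F letters and 6.95% both CHR and CCAAT. Among genes tested in both comparisons these shares were 11.8%, 38.0%, 4.42% and 4.80% (8440 windows). Among the 278 genes higher in G2M in both classes and on neither scoring list, 221 matched, and their 269 windows held the elements in 34.9%, 52.4%, 12.3% and 21.6%. The G2M scoring list had 65.4% CHR and 5.77% E2F windows, and the S scoring list 14.3% CHR and 37.1% E2F windows. In genes lower in G2M the CHR share was 9.06% for columnar epithelium and 11.6% for stroma. These letters occur by chance as well, and a match is a description of the window, not of a bound site.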

How the data were processed

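The authors dissociated each tissue, pooled the mice of a region and stage under 1 CellPlex tag and sequenced the tagged cells as 1 library. The submitters' processing notes name Cell Ranger 6.1.1 and mm10. The deposited files used here hold UMI counts for 19550 genes in 7808 cells, and a cell annotation with class, region, stage, phase, the percent of mitochondrial counts and the S and G2M scores. All 7808 barcodes matched between the matrix, the annotation and the tag list. Per the authors' methods, barcodes with few genes (under 100), very many genes or UMIs (as likely doublets) or a high mitochondrial share were removed, values were normalised by sctransform with mitochondrial share and cell cycle scores regressed out before clustering, and phases came from the cell cycle scoring function of Seurat; its gene lists are not given in the sources used here. No further cells were removed and no doublet caller was run. Depth was 519 to 79817 UMIs per cell, with a median of 10424.5 and 107865155 in all.

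Shares were computed from the deposited phases with exact Clopper-Pearson intervals, CPM from summed counts with exact Poisson intervals, and log2 ratios with 1 UMI added to each sum and intervals conditional on both counts. Replicates were not available, so no p-value was computed, and calls were by size: 2-fold, with 100 or more UMIs over both arms. Genes named were, in each comparison, the 10 with the highest and the 10 with the lowest ratio among genes on neither scoring list with the same direction in GE-SCJ and stomach, *Mki67*, *Top2a*, and from each of 18 lists the 6 members with most UMIs and every member past the fold. Members and lists were chosen with earlier results of these data known. Genes on chromosome Y and *Xist* were left out of the naming. Phases were recomputed with Seurat 5.3.0 (43 S and 54 G2M genes, all 97 in the matrix) in R 4.3.3, at full depth and after thinning to 5000 or 2000 UMIs (seed 1). Other steps ran in Python 3.11.15 with scipy 1.17.1, numpy 2.4.6, scikit-learn 1.9.0, matplotlib 3.10.9 and pandas 2.3.3. On simulated counts with known fold changes the ratio step called 98.9% of 190 changed genes for the columnar comparison (8825 genes) and 99.5% of 195 for the stromal one (10000 genes). This checks the computation on planted changes only and is no support for any single ratio, such as those that rest on few cells. Promoters came from RefSeq and gene positions from GENCODE, both on GRCm38. Alternatives were other UMI minimums, a 1.5-fold cut, a score cut of 0.05, thinning, single regions, other stages, means of per-cell CPM, another library size, and the removal of cells near the boundary, of the deepest cells and, chosen after seeing the data, of endocrine-marked cells, of adult cells with mostly prenatal neighbours or of the 1% of cells richest in a gene.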

Additional observations from a re-analysis of the deposited data

Results flagged for a closer look

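From E19 to the adult the G2M share went one way in squamous epithelium and the other way in the mesenchyme of the esophagus. It went from 13.3% to 25.9% in esophageal squamous cells, a difference of 12.5 percentage points, and from 13.3% to 18.6% at the GE-SCJ (5.27 points). In esophageal stroma it went from 7.04% to 0 of 31 cells, which allows up to 11.2%, and in esophageal smooth muscle from 11.9% to 0 of 30 cells, which allows up to 11.6%. The opposite directions flagged these groups. The difference between them was not tested, and the intervals of the E19 and the adult share overlapped in each of these groups. Median depth at E19 and in adults was 9172 and 4906 UMIs in esophageal stroma and 10348.5 and 5478 in esophageal smooth muscle. In squamous cells it was 12565.5 and 9974 UMIs in the esophagus and 14167.5 and 14878.5 at the GE-SCJ. The part of depth in these differences was not tested.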

How the results depend on the processing

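No paired analysis was possible because each region and stage was 1 pooled sample without replicates. Shares shifted with depth and with the cut. Thinned to 2000 UMIs, cycling shares were 40.0% over all cells, 51.0% and 20.6% in columnar epithelium at E19 and in pups, 53.3%, 39.4% and 9.76% in stroma at E15, E19 and in pups, and 8.80% in pup smooth muscle. Thinned to 5000 UMIs, 36.8% of all cells were cycling and 15.6% G2M. With a score cut of 0.05 the cycling share was 29.3% over all cells, 62.4% and 38.8% in columnar epithelium at E15 and E19, and 40.0%, 27.2% and 1.61% in stroma at E15, E19 and in pups. Counts of genes higher and lower in columnar G2M cells were 168 and 114 at 400 or more UMIs, 1077 and 805 at 1.5-fold, 260 and 106 within the GE-SCJ, 127 and 119 at 5000 UMIs and 241 and 171 in E15 cells, and 408 were lower at 50 or more UMIs. In stroma they were 240 and 104 at 400 or more UMIs, 1202 and 1253 at 1.5-fold, 289 and 158 within the stomach and 327 and 165 within the GE-SCJ, with 374 higher within the esophagus, 247 lower at 5000 UMIs and 150 lower in E15 cells. Stricter UMI minimums, single regions and thinning test fewer genes by construction, and the cause of the other shifts was not tested. Each named ratio was set against several alternatives, and each pair of ratio and alternative is counted once, so that a gene can count many times. Of these pairs 3426 were close to the main value, 932 moved by more than the counting interval, and 24 changed sign. In columnar cells these were, as log2 ratios, *Sst* within the GE-SCJ (0.77), *Onecut2* (0.37), *Ccne1* (−0.31), *Gkn3* (−4.23) and *Cd44* (−0.78) at E15, *Pyy* (2.11), *Gcg* (0.50), *Irs4* (0.67), *Gast* (9.77), *Chgb* (3.90), *Hist1h2ac* (−0.0014) and *Gkn3* (−0.66) in pups, *Gcg* (0.25), *Chgb* (0.25), *Chga* (1.36) and *Sst* (0.40) without endocrine-marked cells, and *Irs4* (0.61), *Chga* (0.76) and *Sst* (0.15) without the 1% of cells with most UMIs of the gene. In stroma they were *Chga* (−4.32) and *Chgb* (−2.32) within the stomach, *Chga* (−0.22) and *Chgb* (−1.47) without endocrine-marked cells, and *Chga* (−0.015) without the 1% of cells. Where cells were removed by the UMIs of the gene itself, as for *Chga* and *Chgb* in endocrine-marked cells, the filter set part of the change. Stromal pup cells gave no ratio, with 2 G2M cells.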

Other observations

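Another 328 cells fell into 38 groups of fewer than 20 cells. Endothelial cells of E15 were cycling in 11 of 17 in the esophagus, 15 of 17 at the GE-SCJ and 8 of 12 in the stomach, and those of pups in 0 of 3, 0 of 13 and 1 of 5. Adult columnar cells of the GE-SCJ were cycling in 5 of 19 and adult stromal cells of the GE-SCJ in 4 of 15, with exact intervals of 9.15 to 51.2% and 7.79 to 55.1%. Of these, 8 of the 15 stromal cells had mostly prenatal nearest neighbours, and 0 of the other 7 were cycling, with the same limit on that search as above.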
